A study of Homo sapiens with 24 samples.

Results

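The genes described here are 10 of the enzymes that lengthen and desaturate fatty acids in human cells, chosen by name from the gene table: 5 elongases (ELOVL1, ELOVL4, ELOVL5, ELOVL6 and ELOVL7) and 5 desaturases (SCD, SCD5, FADS1, FADS2 and FADS3). They are 10 of the 26645 gene entries of the table, and all 10 passed the filter on low counts, as did 14741 entries in all. RNA was measured in MB468 (MDA-MB-468, a triple-negative breast cancer line whose cells need methionine) and in MB468res-R8, a single clone derived from it by long culture in homocysteine medium, which grows without methionine. Cells of either line were collected at 0 h in Met+ medium, which holds 100 μM L-methionine, or at 0.5, 2 or 12 h after a switch to Met-Hcy+ medium, which holds 370 μM DL-homocysteine and no methionine. Both media contained dialyzed serum, vitamin B12, glutamine and cysteine. Each of the 8 groups had 3 libraries. The groups carry no engineered allele or drug, and MB468res-R8 stands for 1 clone, so a difference between the lines cannot be told apart from a trait of that clone. Nothing in the labels says that libraries came from separate cultures, so p-values measure the spread between these libraries, which may be technical. No library came from cells kept in Met+ medium to the later times, so the change of medium and time in culture cannot be told apart.

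Fatty acids are built from malonyl-CoA by fatty acid synthase, which releases mainly palmitate, and are then lengthened on the endoplasmic reticulum by a cycle whose condensing step is carried out by an ELOVL enzyme. Desaturases place double bonds: SCD and SCD5 act at the delta-9 position of saturated acyl-CoAs, and FADS2 and FADS1 act at the delta-6 and delta-5 positions on the way from dietary linoleic and linolenic acids to arachidonic and eicosapentaenoic acids. Many of these genes are known targets of the sterol-regulated transcription factors SREBP-1 and SREBP-2, and the balance they set between saturated, monounsaturated and polyunsaturated chains shapes the membrane and storage lipids of tumor cells.

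Library totals ranged from 11745553 to 36496655 counts, with a median of 20503827. One library stood apart: MB468 at 2 h, replicate 2, held 8251 counts of the noncoding RNA RN7SK, against at most 357 in the other 23 libraries. Against the labelled cell type, all 8 epithelial markers passed the filter, with a summed level of 9235 to 12781 CPM. Of markers of other cells, 1 of 3 leukocyte genes (summed level 2.90 to 10.0 CPM, nearly all CD68, with PTPRC at most 0.199), 3 of 3 endothelial genes (0.590 to 5.90 CPM), 1 of 4 fibroblast genes (COL1A1, 14.6 to 73.2 CPM, with COL1A2 at most 0.0616) and 1 of 3 adipocyte genes (PLIN1, up to 1.46 CPM, with FABP4 at 0 in every library) passed. Of the 3 receptor genes whose proteins define triple-negative cells, ERBB2 (38.3 to 97.3 CPM) and ESR1 (4.15 to 22.6 CPM) passed and PGR did not (at most 0.0983 CPM). Values below are raw read counts divided by TMM-scaled library sizes and set to the mean library size (normalised read counts), given as mean ± SD of 3 libraries. Log2 fold changes, their standard errors (SE) and Benjamini-Hochberg adjusted p-values come from edgeR's quasi-likelihood test over all 14741 genes, and a gene was called at an adjusted p under 0.05. In bulk RNA, fewer expressing cells and less RNA per cell cannot be told apart.

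3 of the desaturase genes lie next to each other on chromosome 11. In GENCODE 44 (GRCh38), FADS2 spans positions 61792980 to 61867354 on the plus strand, FADS1 spans 61799627 to 61829318 on the minus strand and FADS3 spans 61873519 to 61892051 on the minus strand. The RefSeq starts of FADS1 and of the nearer of 2 FADS2 transcripts are 599 bases apart on opposite strands, and since the FADS1 start lies downstream of the FADS2 start, the transcribed units overlap at their 5′ ends. SCD is on chromosome 10 (100347233 to 100364826, plus strand) and SCD5 on chromosome 4 (82629539 to 82798796, minus strand). The elongases are scattered over chromosomes 1, 4, 5 and 6, and only ELOVL4 and ELOVL5 share a chromosome. Exons of FADS1 and FADS2 overlap over 490 bases on opposite strands, 4.79% of the FADS1 exon length, and the library kit does not mark strand, so reads there cannot be told apart between them.

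Promoter sequences are shown for the members whose counts moved most at 12 h (SCD, FADS1, FADS2 and ELOVL6) and for the close relatives not called lower there (SCD5 and FADS3). All 10 genes matched RefSeq promoter windows of GRCh38.p14, 11 windows in all, since FADS2 has 2 starts. Each sequence is the 250 bases before the gene start read 5′ to 3′ on the gene's strand, or, where GENCODE exons cover some of those bases, the longest stretch free of them. Capitals mark the GC box GGGCGG and the CCAAT box CCAAT, searched on both strands. SCD and SCD5, the pair of delta-9 desaturases, lie at chr10:100346983-100347232 (plus strand) and chr4:82798797-82799046 (minus strand):
SCD: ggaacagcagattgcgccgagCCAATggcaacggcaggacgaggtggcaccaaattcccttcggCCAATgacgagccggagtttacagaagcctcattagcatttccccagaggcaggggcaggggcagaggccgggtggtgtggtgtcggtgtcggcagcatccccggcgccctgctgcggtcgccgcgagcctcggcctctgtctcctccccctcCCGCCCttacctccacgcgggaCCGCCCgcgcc
SCD5: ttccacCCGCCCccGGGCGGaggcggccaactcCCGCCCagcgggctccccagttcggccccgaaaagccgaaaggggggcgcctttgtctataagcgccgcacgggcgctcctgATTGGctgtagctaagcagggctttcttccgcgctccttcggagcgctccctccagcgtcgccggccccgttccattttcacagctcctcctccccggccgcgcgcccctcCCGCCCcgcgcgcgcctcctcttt
The FADS1 stretch of 56 bases is chr11:61817198-61817253 (minus strand), the FADS2 stretch of 102 bases is chr11:61816154-61816255 (plus strand), the FADS3 window is chr11:61891546-61891795 (minus strand) and the ELOVL6 stretch of 188 bases is chr4:110198654-110198841 (minus strand):
FADS1: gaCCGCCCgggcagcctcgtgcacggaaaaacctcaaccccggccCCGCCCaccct
FADS2: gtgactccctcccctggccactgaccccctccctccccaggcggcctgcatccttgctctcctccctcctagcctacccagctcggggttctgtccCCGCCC
FADS3: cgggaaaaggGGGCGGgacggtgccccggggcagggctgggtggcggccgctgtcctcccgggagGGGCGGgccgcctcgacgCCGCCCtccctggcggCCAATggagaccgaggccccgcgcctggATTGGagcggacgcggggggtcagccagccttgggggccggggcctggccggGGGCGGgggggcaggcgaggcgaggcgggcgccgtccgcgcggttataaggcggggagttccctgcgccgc
ELOVL6: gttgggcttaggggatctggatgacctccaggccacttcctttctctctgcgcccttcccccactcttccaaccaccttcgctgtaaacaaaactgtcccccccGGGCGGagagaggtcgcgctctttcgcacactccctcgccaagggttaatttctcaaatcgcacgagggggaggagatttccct
In the full windows, SCD held 2 CCAAT boxes and 2 GC boxes, and SCD5 held 1 CCAAT box and 4 GC boxes. FADS3 held 2 CCAAT boxes and 4 GC boxes, FADS1 held 2 GC boxes, and ELOVL6 and the nearer FADS2 window 1 GC box each. A GC box occurred in 42.6% of all 35116 promoter windows of this length and a CCAAT box in 32%. The E-box CACGTG, in 6.34% of windows and also searched on both strands, occurred once each before ELOVL4 and ELOVL5 and in none of the other windows. The sterol regulatory element TCACNCCAC, present in 0.883% of windows, had no match in the 11 windows of these genes, which says only that these letters are not in these windows.

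Per length, SCD was the most abundant of the 10 transcripts in every group. Levels in CPM per kilobase of merged exons were 368 ± 8.46 for SCD in MB468 at 0 h, against 44.7 ± 1.26 for ELOVL5, 42.3 ± 1.12 for ELOVL1, 23.6 ± 0.284 for SCD5 and 16.4 ± 0.635 for ELOVL6. Below these came ELOVL7 at 4.98 ± 0.0852, ELOVL4 at 4.36 ± 0.305, FADS1 at 3.25 ± 0.152, FADS3 at 2.46 ± 0.246 and FADS2 at 2.37 ± 0.0832. Each neighbour in this order was separated from the next by the ranges of 3 libraries except FADS3 and FADS2, which overlapped. SCD alone made up 71.8% of the summed level of the 10 genes in MB468 at 0 h and 71.6% in MB468res-R8 at 0 h.

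At 12 h the order had changed in MB468. SCD stayed first at 94.9 ± 5.69, SCD5 moved to second place at 25.8 ± 0.873, ahead of ELOVL1 at 23.6 ± 0.365 and ELOVL5 at 19.8 ± 0.377, and FADS1 and FADS2 were last at 0.723 ± 0.0689 and 0.570 ± 0.0415. The share of SCD was 51.3% in MB468 and 62.6% in MB468res-R8 at 12 h. In MB468res-R8 the order at 12 h was the same as at 0 h, from SCD at 242 ± 11.8 down to FADS2 at 0.219 ± 0.0485 and FADS1 at 0.207 ± 0.00340, and this last pair overlapped at both times. These ranks depend on the length used: with the longest transcript, FADS1 in MB468 at 0 h was sixth at 7.62, above ELOVL7 at 5.34, and ELOVL1 at 36.3 overlapped SCD5 at 35.9 at 12 h.

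**Figure D1:**
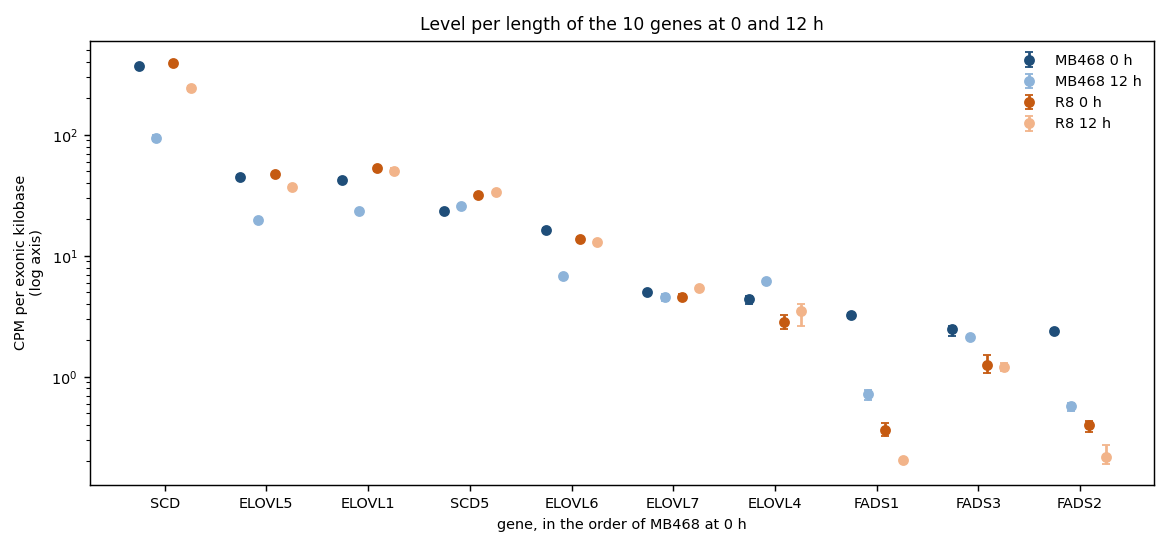
Level per length of the 10 genes in MB468 and MB468res-R8 (R8) at 0 and 12 h, on a log axis in CPM per kilobase of merged exons, with points at the mean and bars over the range of 3 libraries. SCD lies highest in all 4 groups, and FADS1 and FADS2 in MB468res-R8 lie lowest, under 0.5.

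In Met+ medium, before the switch to Met-Hcy+ medium, the lines differed most in FADS1 and FADS2, the desaturases of polyunsaturated chains. FADS1, the delta-5 desaturase, had normalised read counts of 776, 716 and 777 in the MB468 libraries and 84.1, 74.9 and 96.8 in MB468res-R8, so the groups were far apart and the level in MB468res-R8 was 0.112 of that in MB468 (log2 fold change -3.15, SE 0.10, adjusted p = 5.55e-27). FADS2, the delta-6 desaturase, gave 591, 554 and 561 against 103, 99.6 and 83.7, again without overlap (log2 fold change -2.56, SE 0.12, adjusted p = 6.32e-21). Their neighbour FADS3, whose product acts on sphingoid bases, was lower in MB468res-R8 as well, at 179 ± 31.8 against 353 ± 35.3 (log2 fold change -0.98, SE 0.12, adjusted p = 7.66e-09). All 3 genes of the chromosome 11 cluster were lower in the methionine-independent line.

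The other families differed less at 0 h. Of the elongases, ELOVL4, which makes very long chains, was lower in MB468res-R8 (log2 fold change -0.60, SE 0.12, adjusted p = 3.84e-05), and so was ELOVL6, which lengthens palmitate to stearate (log2 fold change -0.24, SE 0.041, adjusted p = 3.51e-06). ELOVL1, which lengthens saturated and monounsaturated very long chains, was higher at 3004 ± 118 against 2414 ± 63.7 (log2 fold change 0.31, SE 0.044, adjusted p = 1.03e-07). ELOVL5, the elongase of polyunsaturated chains, and ELOVL7 were not called, with 95% intervals of the log2 difference of -0.0032 to 0.16 and -0.28 to 0.032. SCD5 was higher in MB468res-R8 at 3046 ± 100.5 against 2269.6 ± 27.3 (log2 fold change 0.42, SE 0.042, adjusted p = 2.62e-11), while SCD, at 46534 ± 1906 against 43897 ± 1009, was not called (interval 0.0038 to 0.16). In all, 7 of the 10 genes were called, 2 higher and 5 lower in MB468res-R8, where 53.5% of all genes tested were called. SCD was called in 1 fit that left out a library, without MB468res-R8 replicate 3 at 0 h (log2 fold change 0.11, adjusted p = 0.0453). With the spike-in totals as library sizes, which shifted the median of all genes by -0.31 in this comparison, ELOVL1 (0.0080) and SCD5 (0.11) were no longer called higher, and ELOVL7 was called lower (-0.44).

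**Figure D2:**
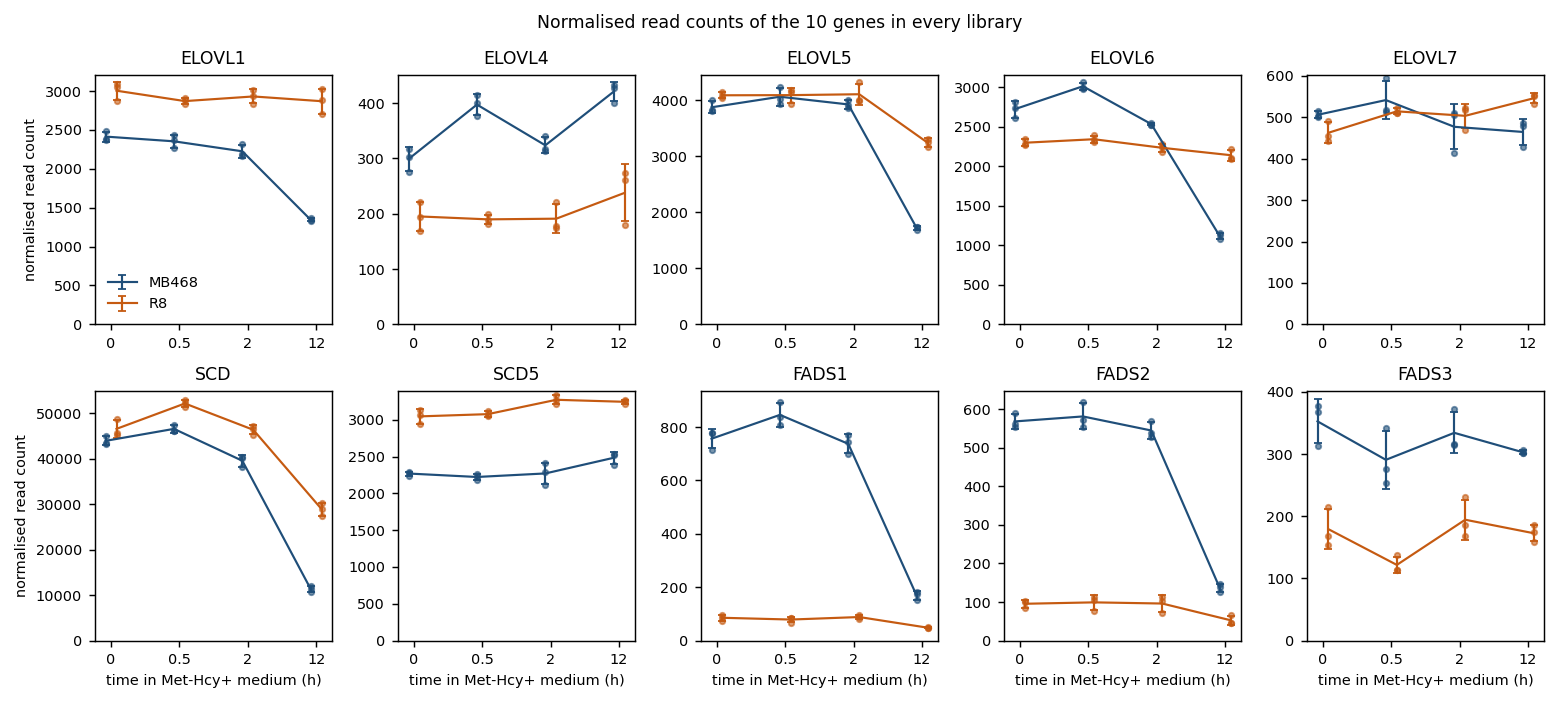
Normalised read counts of each gene in all 24 libraries against time in Met-Hcy+ medium, with points for libraries, lines through the means and bars of 1 SD (n = 3), MB468 in blue and MB468res-R8 (R8) in orange. The time points are evenly spaced and each panel has its own axis from 0. FADS1 and FADS2 start far higher in MB468, and the 12 h drop in SCD, ELOVL5, ELOVL6, FADS1 and FADS2 is steeper there.

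After 12 h in Met-Hcy+ medium, MB468 held far less SCD, FADS1 and FADS2 mRNA. SCD, the main delta-9 desaturase, went from 43239, 43393 and 45059 to 10631, 11333 and 11988 normalised read counts. Every 12 h library thus lay below every 0 h library, and the mean was 0.258 of the 0 h level (log2 fold change -1.96, SE 0.041, adjusted p = 6.45e-33). SCD5, its paralog, did not fall with it: its counts were 2275, 2294 and 2240.0 at 0 h and 2540.0, 2387 and 2524 at 12 h, a small rise (log2 fold change 0.13, SE 0.042, adjusted p = 0.00554) which turned to -0.11 when libraries were scaled to spike-in totals, where the median of all genes was -0.23. The SCD5 call was lost without MB468 replicate 3 at 0 h (log2 fold change 0.10, adjusted p = 0.0633).

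FADS1 fell from 776, 716 and 777 to 150.3, 181 and 173, to 0.221 of its 0 h level (log2 fold change -2.18, SE 0.087, adjusted p = 6.88e-24). FADS2 fell from 591, 554 and 561 to 146, 126 and 138, to 0.242 of its 0 h level (log2 fold change -2.05, SE 0.11, adjusted p = 2.00e-19). For both genes the 3 libraries at 12 h were well below the 3 at 0 h. FADS3 was at 312, 367 and 378 at 0 h and 302, 301 and 306 at 12 h and was not called (log2 fold change -0.21, SE 0.11, adjusted p = 0.089). It passed the threshold without MB468 replicate 1 at 0 h, the lowest of its 0 h libraries (-0.30, adjusted p = 0.0357), and with the 2 compared groups fitted alone (-0.23, adjusted p = 0.0167).

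Among the elongases, ELOVL6 fell from 2608, 2817 and 2736 to 1074, 1154 and 1125 (log2 fold change -1.29, SE 0.043, adjusted p = 1.59e-26), ELOVL5 fell from 3817, 3805 and 3999 to 1681, 1734 and 1741 (log2 fold change -1.17, SE 0.042, adjusted p = 1.67e-25), and ELOVL1 fell from 2388, 2487 and 2368 to 1367, 1336 and 1327 (log2 fold change -0.85, SE 0.046, adjusted p = 1.08e-19). None of these 3 genes had a 12 h library within its 0 h range. ELOVL4 went the other way, from 276, 303 and 318 to 433, 428 and 401 (log2 fold change 0.50, SE 0.11, adjusted p = 8.23e-05), with the groups apart, although it was not called with spike-in scaling (0.26). ELOVL7 was not called (-0.12, 95% interval -0.28 to 0.026), but with spike-in scaling it was called lower (-0.36), as was FADS3 (-0.45). The comparison at 12 h in MB468 therefore had 8 of the 10 genes called, 2 higher and 6 lower, beside 70.8% of all genes, and the median log2 fold change of the 10 was -1.01 against 0.0073 over all genes tested. FADS1, FADS2, SCD, ELOVL6 and ELOVL5 are among the genes that the study singled out for their late fall in MB468 in these same libraries, so their direction here is not independent evidence.

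In MB468res-R8 after 12 h, SCD, FADS1, FADS2 and ELOVL5 fell, by less than in MB468, and ELOVL7 rose. ELOVL6 was called lower too, a small change whose call depended on single libraries and on the method. SCD fell from 45678, 48718 and 45207 to 28812, 27485 and 30309.6, to 0.620 of its 0 h level, with all 12 h libraries below the 0 h range (log2 fold change -0.69, SE 0.040, adjusted p = 3.53e-18). FADS2 fell from 103, 99.6 and 83.7 to 46.5, 66.0 and 45.3 (log2 fold change -0.89, SE 0.16, adjusted p = 7.77e-06), and FADS1 fell from 84.1, 74.9 and 96.8 to 47.4, 49.0 and 48.1 (log2 fold change -0.82, SE 0.14, adjusted p = 2.87e-06). These FADS values rest on few reads, since the lowest raw counts of FADS1 and FADS2 in any library were 43 and 48. ELOVL5 fell from 4088 ± 52.3 to 3241 ± 77.0 (log2 fold change -0.33, SE 0.041, adjusted p = 3.11e-09), and ELOVL7 rose from 463 ± 25.4 to 546 ± 12.0 (log2 fold change 0.23, SE 0.076, adjusted p = 0.0076), a call lost with spike-in scaling (0.26, adjusted p = 0.141).

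The remaining changes in MB468res-R8 at 12 h were small, or their calls depended on single libraries and on the method. ELOVL6 was called lower at -0.10, SE 0.042, adjusted p = 0.0326, and the call was lost with spike-in scaling (-0.079) and without replicate 1 or 2 of either time, with log2 fold changes of -0.088, adjusted p = 0.116 and -0.089, adjusted p = 0.102 for the 0 h libraries and -0.067, adjusted p = 0.222 and -0.091, adjusted p = 0.0933 for the 12 h libraries. The ELOVL6 call was also lost without a low-count filter (-0.094, adjusted p = 0.125) and with the compared groups alone (-0.094, adjusted p = 0.0961). ELOVL4 was not called (0.26, SE 0.12, adjusted p = 0.0533), but its 12 h libraries were 179, 261 and 274. It was called without the low replicate 1 (0.46, adjusted p = 5.66e-04) and without replicate 1 at 0 h (0.40, adjusted p = 0.0118). With all libraries, ELOVL4 was called with DESeq2 size factors (0.27, adjusted p = 0.0474) and without a low-count filter (0.27, adjusted p = 0.0361). SCD5 (0.090, SE 0.041, adjusted p = 0.0568) was not called, yet passed when any one of 4 libraries was left out, replicates 1 and 2 at 0 h and 1 and 3 at 12 h (log2 fold changes 0.12, 0.11, 0.11 and 0.12). With all libraries, SCD5 was called by DESeq2's test (0.096, adjusted p = 0.0266) and with DESeq2 size factors in edgeR (0.096, adjusted p = 0.0391). ELOVL1 (95% interval -0.15 to 0.022) and FADS3 (-0.31 to 0.22) were not called. In all 6 genes were called, 1 higher and 5 lower, beside 61.3% of all genes tested.

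**Figure D3:**
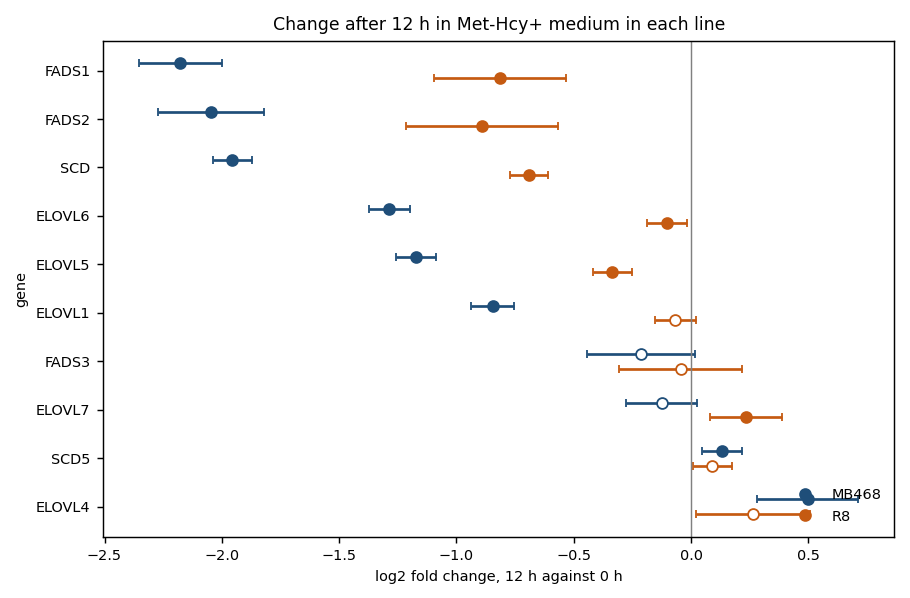
Log2 fold change at 12 h against 0 h for each gene, MB468 in blue and MB468res-R8 (R8) in orange, with bars over 95% intervals. Filled points passed an adjusted p of 0.05 and open points did not. FADS1, FADS2 and SCD lie near -2 in MB468 and between -0.9 and -0.6 in MB468res-R8, while ELOVL4 and SCD5 lie above 0 in both.

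How far the 12 h responses of the lines differ was tested directly, as the change in MB468res-R8 minus the change in MB468. It was called for 7 of the 10 genes, beside 56.5% of all genes (3863 positive and 4473 negative). All 7 differences were positive, meaning a smaller fall or a rise in MB468res-R8. The differences were 1.36, SE 0.17, adjusted p = 4.88e-09 for FADS1, 1.27, SE 0.057, adjusted p = 1.67e-21 for SCD, 1.18, SE 0.060, adjusted p = 7.13e-20 for ELOVL6 and 1.16, SE 0.20, adjusted p = 4.27e-06 for FADS2 on the log2 scale. ELOVL5 (0.84, SE 0.058), ELOVL1 (0.78, SE 0.063) and ELOVL7 (0.36, SE 0.11) followed, with adjusted p-values of 1.29e-15, 1.03e-13 and 0.00399 in the same edgeR fit. No difference was called for ELOVL4 (95% interval -0.56 to 0.092), FADS3 (-0.18 to 0.52) or SCD5 (-0.16 to 0.078). The 2 changes share no library, and each uses its own line's 0 h level, which for FADS1 and FADS2 differed strongly.

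At 12 h all 10 genes differed between the lines, 6 higher and 4 lower in MB468res-R8, beside 73.1% of all genes. SCD was 28869 ± 1413 in MB468res-R8 and 11318 ± 679 in MB468 (log2 fold change 1.35, SE 0.041, adjusted p = 4.28e-28), a gene that was not called at 0 h. ELOVL1 (1.09, SE 0.045), ELOVL6 (0.94, SE 0.043) and ELOVL5 (0.92, SE 0.042) were higher in MB468res-R8 by less than SCD. ELOVL6 was lower in MB468res-R8 at 0 h and higher at 12 h. FADS1 (log2 fold change -1.79, SE 0.12, adjusted p = 8.75e-17) and FADS2 (-1.40, SE 0.15, adjusted p = 3.59e-11) remained lower in MB468res-R8 in spite of their steeper fall in MB468, with 150.3, 181 and 173 FADS1 counts in MB468 and 47.4, 49.0 and 48.1 in MB468res-R8. ELOVL4 (-0.83, SE 0.11) and FADS3 (-0.81, SE 0.12) were lower too, and SCD5 (0.38, SE 0.041) and ELOVL7 (0.24, SE 0.074) were higher, though ELOVL7 was not called with spike-in scaling (0.18).

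Calls at the early times, whose comparisons share their 0 h libraries with the 12 h ones, are given beside the shares of all genes. With 10 genes, no difference from those shares is claimed. At 0.5 h in MB468, 3 of the 10 genes were called, beside 33.9% of all genes: ELOVL4 rose from 276, 303 and 318 to 415, 400.1 and 377 counts, with no overlap (log2 fold change 0.42, SE 0.11, adjusted p = 0.00238, not called with spike-in scaling at 0.21, adjusted p = 0.331), ELOVL6 rose slightly (log2 fold change 0.15, SE 0.041, adjusted p = 0.00472) and FADS3 was lower at the edge of the threshold (log2 fold change -0.30, SE 0.12, adjusted p = 0.0493). The FADS3 call was lost when any one of 4 libraries was left out, replicates 2 and 3 at 0 h (-0.27, adjusted p = 0.15 and -0.26, adjusted p = 0.142) and replicates 1 and 2 at 0.5 h (-0.28, adjusted p = 0.15 and -0.22, adjusted p = 0.23). The ELOVL6 call was lost without replicate 1 at 0 h (0.11, adjusted p = 0.0678), and its value turned to -0.069 with spike-in scaling, where the median of all genes was -0.20. FADS3 was the only one of the 10 genes called with that scaling (-0.50, adjusted p = 0.0126). In MB468res-R8 at 0.5 h, 2 genes were called beside 33.7% of all genes. FADS3 fell from 154, 215 and 169 to 137, 114 and 114, with all 0.5 h libraries below the 0 h range (log2 fold change -0.54, SE 0.14, adjusted p = 0.00184). It was also called with spike-in scaling (-0.48, adjusted p = 0.043). SCD rose from 45678, 48718 and 45207 to 51418, 52806 and 52118 (log2 fold change 0.16, SE 0.040, adjusted p = 0.00109), a call not made with spike-in scaling (0.21). In MB468 at 0.5 h, SCD (0.084, SE 0.040, adjusted p = 0.103) and FADS1 (0.17, SE 0.078, adjusted p = 0.0976) were not called. Their 0.5 h libraries there still lay above the 0 h ranges. With spike-in scaling these 2 values were -0.13 and -0.048. In both lines the lowest FADS3 mean was that at 0.5 h, and by 2 h its means were 334 in MB468 and 194 in MB468res-R8.

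At 2 h in MB468, SCD was the only gene called, beside 16.3% of all genes, with counts of 40079, 40422 and 38058 against 43239, 43393 and 45059 at 0 h and no overlap (log2 fold change -0.15, SE 0.040, adjusted p = 0.0053). Replicate 2 of this group is the library rich in RN7SK, and SCD was called without it as well (log2 fold change -0.17, adjusted p = 0.00716). A second gene passed without either of 2 libraries, ELOVL6 without MB468 replicate 1 at 0 h (-0.13, adjusted p = 0.047) and ELOVL1 without MB468 replicate 1 at 2 h (-0.15, adjusted p = 0.0423). Spike-in scaling gave 9 genes lower at this time, where all genes together had a median of -0.42, and set against that median SCD was -0.15. In MB468res-R8 at 2 h edgeR called 0 of the 10 genes, beside 4.37% of all genes. 1 gene, SCD5, had an unadjusted p under 0.05 there, and DESeq2 also called 0. The lines did not differ detectably in the early responses, with 0 genes called at 0.5 h, beside 2.9% of all genes, and 0 at 2 h, beside 5.07%. Unadjusted p-values were under 0.05 for 2 genes at 0.5 h (ELOVL4 and ELOVL6) and for 1 at 2 h (SCD), and DESeq2 called 0 at both times. The 95% intervals of these differences still reached -0.81 for ELOVL4 at 0.5 h and 0.26 for SCD at 2 h.

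Ratios of 2 genes within a library do not depend on library scaling and compare the members with each other. For 9 pairs and 3 comparisons each (27 tests), 22 had groups that did not overlap, at the smallest p that an exact two-sided permutation test of 3 against 3 libraries allows, 0.1 (adjusted p = 0.123), so none could pass 0.05. The log2 ratio of SCD to SCD5 in MB468 was 4.25, 4.24 and 4.33 at 0 h and 2.07, 2.25 and 2.25 at 12 h, a difference of -2.09. In MB468res-R8 the same ratio changed from 3.93 ± 0.031 to 3.15 ± 0.082 (mean ± SD, n = 3), a difference of -0.78. Per length, SCD was 15.6 times as abundant as SCD5 in MB468 at 0 h and 3.68 times at 12 h, and in MB468res-R8 these ratios were 12.3 and 7.18.

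FADS1 and FADS2 had overlapping ratios at 0 and 12 h while both fell. In MB468 their log2 ratio was 0.39, 0.37 and 0.47 at 0 h and 0.042, 0.52 and 0.32 at 12 h, overlapping groups with a difference of -0.12 (exact permutation p = 0.6), and in MB468res-R8 the difference was 0.060 (exact permutation p = 1). At 0 h the log2 ratio in MB468res-R8 minus that in MB468 was -0.57, without overlap. FADS2 moved away from FADS3, with a difference at 12 h of -1.84 in MB468 and -0.83 in MB468res-R8. SCD and FADS2, which lie on different chromosomes and differ widely in level, also kept overlapping ratios in both lines (0.10, exact permutation p = 0.4, and 0.18, exact permutation p = 0.5). The log2 ratio of SCD to ELOVL6 fell by 0.67 in MB468 and 0.59 in MB468res-R8 on the log2 scale.

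Within the elongases, ELOVL6 lost ground to ELOVL1 in MB468 (-0.44 at 12 h against 0 h, groups apart) and not detectably in MB468res-R8 (-0.036, exact permutation p = 0.6). ELOVL5 lost ground to ELOVL1 in both lines (-0.33 and -0.27), and ELOVL7 gained on it (0.72 and 0.31), with the groups apart each time. The log2 ratio of ELOVL6 to ELOVL5 moved in opposite directions in the lines, -0.11 in MB468 and 0.23 in MB468res-R8, both without overlap.

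**Figure D4:**
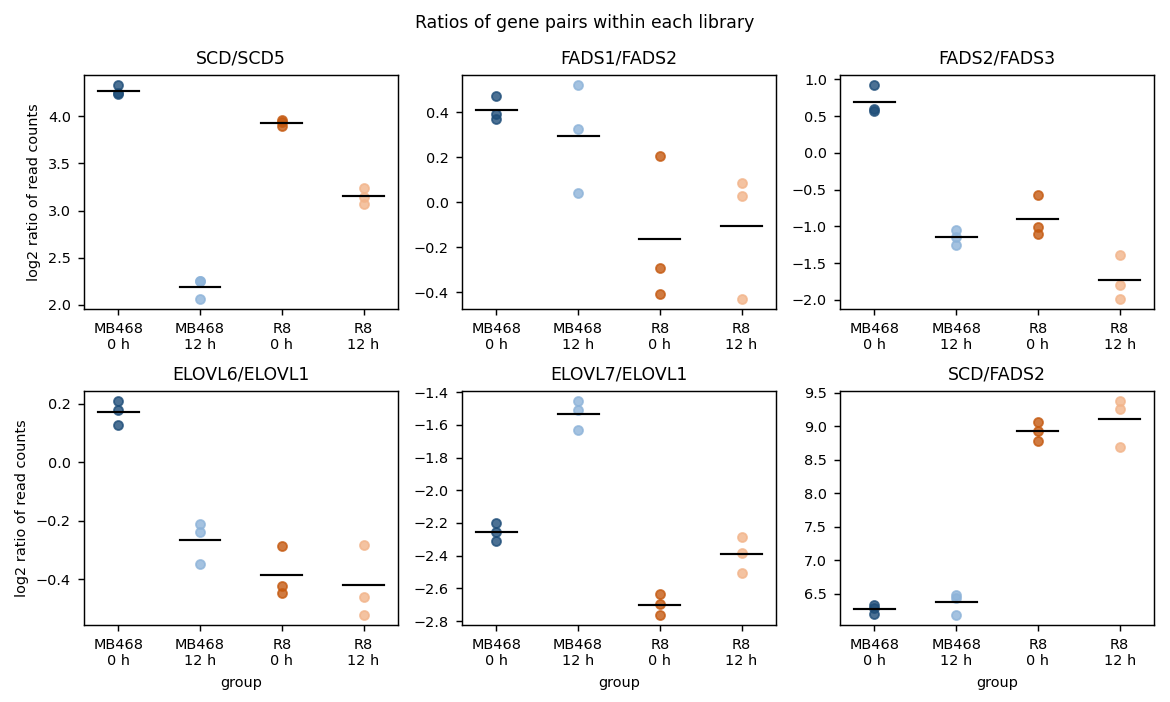
Log2 ratio of read counts for 6 gene pairs within each library of MB468 and MB468res-R8 (R8) at 0 and 12 h, with points for libraries and bars at the mean of 3. SCD/SCD5 drops from 4.27 to 2.19 in MB468, while MB468res-R8 goes from 3.93 to 3.15, whereas FADS1/FADS2 and SCD/FADS2 overlap between 0 and 12 h within each line.

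The enzymes that work beside the elongases and desaturases were counted in the same fit. The elongation cycle needs a ketoacyl reductase, a dehydratase and an enoyl reductase, and of 6 such genes tested (7 listed) 1 rose and 4 fell in MB468 at 12 h, with a median log2 fold change of -0.49, against 0.0073 over all genes tested. The counts in this list and the next ones stand beside 70.8% of all genes called in MB468 and 61.3% in MB468res-R8 at 12 h. TECR, the enoyl reductase, fell by 0.70 on the log2 scale in MB468 (SE 0.054, adjusted p = 3.29e-13) and by 0.49 in MB468res-R8. HACD3, a dehydratase, moved in opposite directions, -0.37 (SE 0.043, adjusted p = 5.12e-10) in MB468 and 0.37 (SE 0.042, adjusted p = 8.32e-10) in MB468res-R8. HSD17B12, the ketoacyl reductase, fell in MB468 at -0.44 (SE 0.042, adjusted p = 5.34e-12) and in MB468res-R8 at -0.13 (SE 0.043, adjusted p = 0.0106). In MB468res-R8, 2 rose and 2 fell. Desaturases draw electrons from cytochrome b5 and its reductases, and of these 6 genes 2 rose and 4 fell in MB468 (median -0.16) and 1 rose and 3 fell in MB468res-R8 (median -0.092). CYB5R3 changed by -0.53 on the log2 scale in MB468 and by -0.18 in MB468res-R8. CYB5A, the microsomal cytochrome b5, changed by -0.29 and -0.28, and all of these falls were called in edgeR. The sparse reductase gene CYB5R2 rose in MB468 at 0.99 (SE 0.22, adjusted p = 1.04e-04) and was not called in MB468res-R8 (-0.0061).

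Of 5 further family members listed, 3 passed the filter. All 3 fell in MB468 at 12 h: ELOVL2, an elongase of polyunsaturated chains, at -0.71 (SE 0.12, adjusted p = 9.15e-07), DEGS1, the dihydroceramide desaturase, at -0.50 (SE 0.049, adjusted p = 8.70e-12) and DEGS2, its paralog, at -1.23 (SE 0.22, adjusted p = 5.53e-06). In MB468res-R8 DEGS1 rose (0.34, SE 0.048, adjusted p = 9.13e-08), DEGS2 fell (-2.03, SE 0.18, adjusted p = 3.27e-12) and ELOVL2 was not called (0.20). Beside the 70.8% and 61.3% of all genes called in the 2 lines, of 9 genes of fatty acid synthesis and acyl-CoA supply, 2 rose and 5 fell in MB468 (median -0.87) and 1 rose and 6 fell in MB468res-R8 (median -0.39). ACLY, which makes cytosolic acetyl-CoA, changed by -1.21 and -0.39 in the respective lines, SLC25A1, the mitochondrial citrate carrier, by -1.22 and -0.49, and ME1, a cytosolic source of NADPH, by -0.90 and -0.39, each called in edgeR. Of 5 long-chain acyl-CoA synthetases tested (7 listed), 0 rose and 4 fell in MB468 (median -1.16) and 0 rose and 3 fell in MB468res-R8. ACSL1 fell from 9677 ± 245 to 2027 ± 38.7 normalised read counts in MB468 (-2.25, SE 0.039, adjusted p = 6.60e-36) and from 10523 ± 257 to 5256 ± 191 in MB468res-R8. ACSL4, which favors arachidonic acid, fell by 1.29 and 0.40, and ACSL3 by 0.78 and 0.56.

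Among 10 genes that regulate this pathway, 3 rose and 5 fell in MB468 at 12 h (median -0.22), beside 70.8% of all genes called, and 0 rose and 7 fell in MB468res-R8 (median -0.54), beside 61.3%. INSIG1, which holds SREBP precursors in the endoplasmic reticulum and is itself a target of SREBP, fell by 3.37 on the log2 scale in MB468 (SE 0.13, adjusted p = 7.16e-14) and by 2.31 in MB468res-R8. SREBF1, which encodes SREBP-1, fell by 1.24 in MB468 and by 0.73 in MB468res-R8, with a called difference between the lines (0.51, SE 0.068, adjusted p = 3.65e-08). SREBF2, which encodes SREBP-2, fell by 0.72 and 0.86, and here the difference between the lines was not called (-0.14, SE 0.064, adjusted p = 0.064). Whether any of these transcripts bears on the elongase and desaturase counts was not tested.

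**Figure D5:**
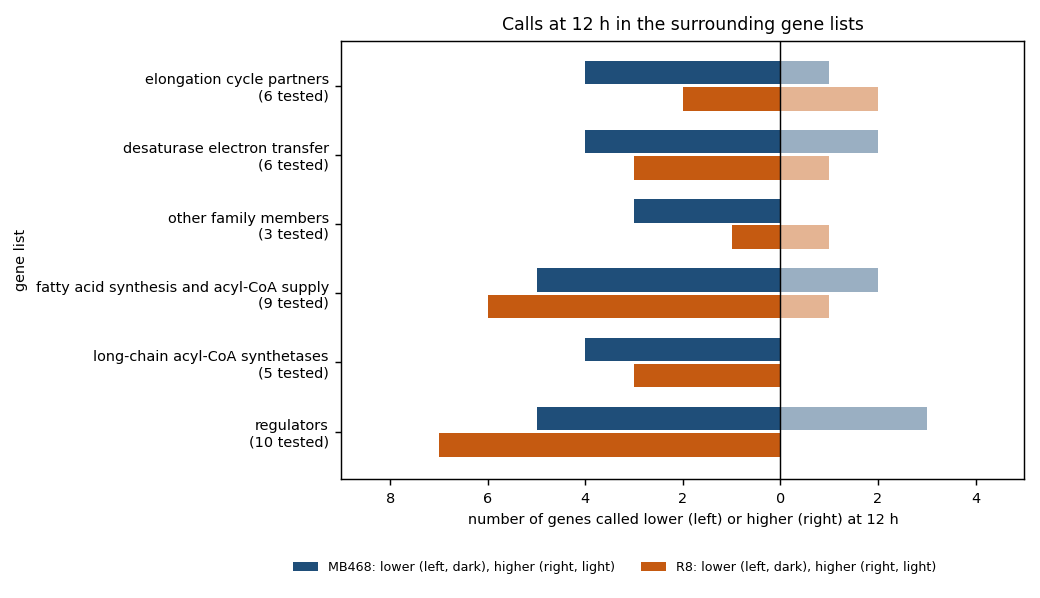
Number of genes called higher (right, light) or lower (left, dark) at 12 h against 0 h in each surrounding gene list, MB468 in blue and MB468res-R8 (R8) in orange, with the number of genes tested beside each name. Lower calls outnumber higher calls in every list in MB468, and in 4 of the 6 lists in MB468res-R8.

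Across the 8 groups, the profile of each gene (its 8 mean log2 CPM values, centred) was set against those of the other members and of all genes tested by the root mean square difference, a description of 8 group means with no test. The closest members were ELOVL5 and ELOVL6, 0.149 log2 units apart, followed by ELOVL1 and ELOVL5 at 0.205 and ELOVL7 and SCD5 at 0.238. FADS1 and FADS2 were 0.307 apart, and SCD was nearer to ELOVL5 (0.283) than to its paralog SCD5 (0.686). Outside the set, the genes most like FADS1 were CRAT (0.249), SPOCK2 (0.273) and SYNE4 (0.283), and those most like FADS2 were MAGEB1 (0.124), CRAT (0.136) and ART3 (0.141). CRAT, the carnitine acetyltransferase gene, was on both lists. SCD lay nearest to SEPT3 (0.0842), EPHA6 (0.113) and CLEC7A (0.114), and SCD5 to IPO13 (0.0372), LINC00667 (0.0476) and WRAP73 (0.0509). For the elongases the nearest were CMC4 (0.0327) for ELOVL1, ZDHHC8 (0.0966) for ELOVL4, SEPT10 (0.0399) for ELOVL5, CENPH (0.0790) for ELOVL6 and TMEM38B (0.0465) for ELOVL7, and STOM (0.122) was nearest to FADS3. Distances are smaller for genes that vary little, such as ELOVL7, whose own profile had a root mean square of 0.0867, against 1.59 for FADS1.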

How the data were processed

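RNA was measured in 24 poly(A) libraries of 2 cell lines at 4 times. The authors aligned single-end reads of 100 bases with HISAT2 (version 2.1.0, per the submitters' processing notes) to GRCh38/hg38 joined with the 92 ERCC spike-in sequences and deposited raw counts per gene from featureCounts. The annotation release and strand setting are not given in the sources used here. A table of 18 libraries normalized by the authors and tables of their own fold changes and p-values were also deposited and were not used.

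From the counts, edgeR 4.0.16 (R 4.3.3) was run with filterByExpr, TMM, a mean per group and the robust quasi-likelihood test, giving 11 comparisons over 14741 genes with Benjamini-Hochberg adjustment. Spike-in rows were left out of library sizes. Standard errors were the log2 fold change divided by the square root of F. The fit was tested on simulated counts. Ratios used counts plus 0.5. Lengths and overlaps came from GENCODE 44, promoters from RefSeq. Alternatives were DESeq2 1.42.0 and its size factors, spike-in totals, other low-count filters, an adjusted p of 0.01, fits of the compared groups alone, a replicate block, and leaving out each library. Over all groups, libraries with the same replicate number did not deviate together on average (mean correlation -0.0199 over 6391 genes), so no block was used. Single pairs of groups differed. Within MB468res-R8, the mean was 0.277 between 2 h and 0 h, against -0.138 for other numbers. Between 12 h and 0 h it was -0.145, against 0.0724. The members and gene lists were chosen with earlier results of these data known. All members are named, and up to 3 genes of each list, ranked by p in the 12 h comparison of MB468. Counting error is larger for FADS1 and FADS2, whose lowest counts were 43 and 48.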

Additional observations from a re-analysis of the deposited data

Results flagged for a closer look

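7 genes were picked out because their 12 h response differed between the lines by a test of the difference itself, the change in MB468res-R8 minus the change in MB468 in edgeR's fit. The log2 differences were 1.36 for FADS1, 1.27 for SCD, 1.18 for ELOVL6, 1.16 for FADS2, 0.84 for ELOVL5, 0.78 for ELOVL1 and 0.36 for ELOVL7. Over the 12 fits that each leave out 1 library, the ranges were 1.28 to 1.44 for FADS1, 1.24 to 1.32 for SCD, 1.16 to 1.25 for ELOVL6, 0.98 to 1.30 for FADS2, 0.82 to 0.91 for ELOVL5, 0.75 to 0.87 for ELOVL1 and 0.31 to 0.46 for ELOVL7, and every one of these fits called the difference. ELOVL1 and ELOVL6 were the genes in which a clear fall in MB468 (-0.85 and -1.29) stood beside log2 fold changes close to 0 in MB468res-R8 (-0.066 and -0.10), whereas FADS1, FADS2 and SCD fell in both lines. ELOVL7 passed on a rise in MB468res-R8 (0.23) beside a change of -0.12 in MB468 that was not called.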

How the results depend on the processing

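Of the 110 log2 fold changes of single genes, 107 kept direction and call with DESeq2's test, 107 with DESeq2 size factors, 109 with at least 10 counts in every library, 108 without a low-count filter, 108 with the compared groups alone and 108 at an adjusted p of 0.01. Spike-in totals as library sizes changed most, with 10 calls lost and 11 gained, a shift in the median of all genes and a median SE of 0.16 in place of 0.069. The number of genes called was 1 in MB468 at 0.5 h, 9 in MB468 at 2 h and 1 in MB468res-R8 at 0.5 h, and ELOVL6 in MB468 at 0.5 h (-0.069), ELOVL5 in MB468 at 2 h (-0.40) and SCD5 in MB468 at 12 h (-0.11) changed sign. These are the 3 of 22 sign changes in which either scaling gave a call, and the other 19 were called under neither. The 7 differences between the lines in the 12 h response kept sign and call under each of these alternatives and in each fit that left out 1 library, with ELOVL7 at 0.62 in place of 0.36 under spike-in totals. Leaving out 1 library moved the number of genes called in MB468 at 2 h between 1 and 2, and the log2 ratio of FADS1 to FADS2 (12 h against 0 h) ranged from -0.23 to 0.011 in MB468 and, in MB468res-R8, from -0.062 to 0.25, and that of ELOVL6 to ELOVL1 from -0.11 to 0.014 in MB468res-R8. The cause of these changes was not tested.

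A replicate block left 109 of the 110 calls as they were and gave 2 genes called in MB468 at 0.5 h, with FADS3 at -0.30 (edgeR, adjusted p = 0.0543). For 6 of 24 libraries, the mean correlation with libraries of other groups was highest for those sharing their replicate number. In MB468res-R8 at 12 h the SEs of FADS1, FADS2, FADS3 and ELOVL4 (0.14, 0.16, 0.13 and 0.12) exceeded the 0.040 of SCD. The lowest raw counts of these genes in any library were 43, 48, 93 and 124, against 10507 for SCD. Whether depth accounts for the larger SEs was not tested.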

Other observations

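Because FADS1, FADS2 and FADS3 were all lower in MB468res-R8 at 0 h, the other genes within 250 kb of the cluster on chromosome 11 were looked at after those values were seen. Of 10 such genes tested, 2 were higher and 3 lower in MB468res-R8 at 0 h, beside 53.5% of all genes called, with a median log2 difference of -0.074 and a range of -1.09 to 0.78, so no neighbour reached the differences of FADS1 and FADS2 (-3.15 and -2.56). FEN1, a flap endonuclease gene of DNA replication that shares 49 exonic bases with FADS2, was -0.016 (SE 0.042) between the lines at 0 h and 1.02 (SE 0.041) in MB468 at 12 h, the opposite direction to FADS2. TMEM258, on the other side of FEN1, was 0.17 (SE 0.084) and -0.27 (SE 0.084) in the same comparisons. BEST1 (-1.09, SE 0.33) and DAGLA (-0.84, SE 0.27) were the most reduced neighbours at 0 h, and both fell further in MB468res-R8 at 12 h (-2.53, SE 0.49 and -1.79, SE 0.35), when neither was called in MB468. RAB3IL1, next to FADS3, rose in MB468res-R8 at 12 h at 1.01 (SE 0.13). No hypothesis was tested on these values.

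The fall at 12 h did not order the genes as their levels did. SCD, the most abundant transcript per length, had a log2 fold change of -1.96 in MB468. FADS2, which shared the bottom of the merged-exon order in MB468 at 0 h with FADS3, had -2.05. With the longest transcript, FADS2 was at 4.93 there, above ELOVL4 at 4.36 and FADS3 at 2.92. SCD5 and ELOVL6, which were close in level (23.6 and 16.4 CPM per exonic kilobase), had 0.13 and -1.29. DEGS2 was higher in MB468res-R8 than in MB468 at 0 h (log2 difference 1.94, SE 0.18, adjusted p = 1.09e-11 in edgeR) and fell further in that line at 12 h (difference -0.80, SE 0.29, adjusted p = 0.0169 in edgeR).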
